A study of Mus musculus with 20 samples.

Results

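The genes of the MHC class II antigen presentation pathway and their regulator Ciita were followed in macrophages and monocytes sorted from mouse tumours. The 10 genes were chosen by name: the class II chain genes H2-Aa, H2-Ab1 and H2-Eb1, the invariant chain gene Cd74, the peptide exchange genes H2-DMa, H2-DMb1 and H2-DMb2, their modulators H2-Oa and H2-Ob, and Ciita. All 10 were found among the 36528 gene models of the deposited files and all 10 passed the filter on low counts, which left 15390 genes. Levels of all 10 were higher on average after anti-PD-L1 in both cell types, but few of these differences passed the test. The chain genes, Cd74 and H2-Ob were higher in macrophages than in monocytes, by 1.12 to 1.73 on the log2 scale.

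MHC class II molecules are paired alpha and beta chains that display peptides from internalised proteins to CD4+ T cells. The invariant chain escorts newly made chains to endosomes, where H2-DM exchanges its remnant peptide for others and H2-O restrains H2-DM. CIITA is a co-activator that binds no DNA itself and acts through factors seated on conserved promoter elements, the X and Y boxes. Macrophages make CIITA mainly after exposure to interferon gamma, while dendritic cells and B cells make it without that signal.

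MC38 is a transplantable mouse colon carcinoma line. The 4 groups of 5 libraries were macrophages from tumours of mice given an antibody to PD-L1 (aPDL1 in the labels), macrophages from control tumours, monocytes from anti-PD-L1 tumours and monocytes from control tumours, and RNA was isolated on day 7. The sources used here give neither the control treatment, nor the strain, sex and age of the mice, nor the sorting gates. Whether replicates of a group are separate animals is not stated either. The p-values therefore rest on the variation among these libraries, part of which may be technical. Sample numbers of the control libraries are all below those of the treated ones, and treatment cannot be told apart from that order. Libraries held 30191509 to 36514133 counts. Of 14 macrophage markers, 12 were higher in macrophages than in monocytes in each kind of tumour. Of 14 monocyte markers, 13 in anti-PD-L1 tumours and 12 in control tumours were lower in macrophages, so the labels match these lists. Control macrophage replicate 1 and control monocyte replicate 4 were the lowest of their groups for Ciita and were picked by that value. In both, 19.6% of all genes were at their lowest of the group, a share not computed for any other pair. Results that change without this pair are given both ways below, except for the genes most like the chains or Ciita, which were not sought again without it. In bulk RNA, fewer cells of a type and less RNA per cell cannot be told apart.

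The promoter sequences are shown because they carry the elements through which CIITA acts on these genes. RefSeq windows on GRCm38.p6, from 250 bases before to 50 after a start, were at hand for 7 of the 10 genes and not for H2-Ab1, Cd74 and Ciita. The letters TGATTGG, matching the Y box core, stood in the windows of 6 genes, and the letters AAC, any 2 bases and ATGATG, within the X box, in those of 4 genes. Both were searched on both strands, do not overlap each other, and were chosen after these sequences had been read. Among all 32851 windows, 7.82% held the first, 0.137% the second and 0.0274% both. In the stretches below, each 72 bases long and written 5′ to 3′ on the strand of the gene, capitals mark these matches.
H2-Aa (chr17:34287857-34287928, minus strand): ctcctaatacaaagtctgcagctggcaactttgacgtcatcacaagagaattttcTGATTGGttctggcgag
H2-Eb1 (chr17:34305751-34305822, plus strand): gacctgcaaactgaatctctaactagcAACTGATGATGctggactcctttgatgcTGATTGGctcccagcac
H2-DMb1 (chr17:34153073-34153144, plus strand): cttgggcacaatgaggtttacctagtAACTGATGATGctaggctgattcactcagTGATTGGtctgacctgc
H2-DMb2 (chr17:34145102-34145173, plus strand): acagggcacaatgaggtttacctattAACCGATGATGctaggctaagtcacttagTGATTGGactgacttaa
H2-Oa (chr17:34092279-34092350, plus strand): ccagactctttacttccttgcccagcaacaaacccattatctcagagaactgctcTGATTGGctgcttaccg
H2-Ob (chr17:34238791-34238862, plus strand): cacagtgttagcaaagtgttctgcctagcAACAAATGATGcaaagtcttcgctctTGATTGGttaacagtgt

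The matches lay at similar places in these promoters. TGATTGG began 50 bases before the RefSeq start used for H2-Aa, 61 before that for H2-Eb1, 63 before that for H2-DMb1, 92 before that for H2-DMb2, 45 before that for H2-Oa and 59 before that for H2-Ob. The start used for H2-DMb2, at 34145249, lies inside the span given for that gene below and not at its edge. In the 4 genes with both stretches, 17 bases lay between them in H2-Eb1, 18 in H2-DMb1, 18 in H2-DMb2 and 15 in H2-Ob. Over the 15 bases ending with the X stretch, H2-DMb1 and H2-DMb2 differed at 2 positions, G3T and T8C, counted from 1 at the 5′ end with the H2-DMb1 base first. The 2 windows of H2-DMa held neither stretch, which says only that these letters are not in those windows. Both also lie inside the span given for H2-DMa below. The 9 windows with both stretches belonged to 7 genes: H2-Eb1, H2-DMb1, H2-DMb2, H2-Ob, Gm38969, Nubp2 and Spsb3.

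Per length, the deposited nRPKM values put the genes in tiers that held in all 4 groups. Cd74 was highest, with means ± SD of 13150 ± 1007 nRPKM in anti-PD-L1 macrophages, 8148 ± 2087 in control macrophages, 5539 ± 1017 in anti-PD-L1 monocytes and 3494 ± 1016 in control monocytes (n = 5 each). The chain genes followed. In anti-PD-L1 macrophages H2-Aa stood at 7259 ± 690, H2-Ab1 at 6750 ± 811 and H2-Eb1 at 4501 ± 305 nRPKM. The means of H2-Aa and H2-Ab1 lay within 1 SD of each other in every group. The next tier was H2-DMb1 at 449 ± 45.0 and H2-DMa at 387 ± 38.2 nRPKM in the same libraries, with H2-DMb1 the higher in all 5. Ciita, as a regulator, was far lower at 32.2 ± 5.97 nRPKM, H2-DMb2 was at 17.5 ± 1.39, and H2-Oa and H2-Ob closed the order at 6.46 ± 0.620 and 5.90 ± 0.322.

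**Figure D1:**
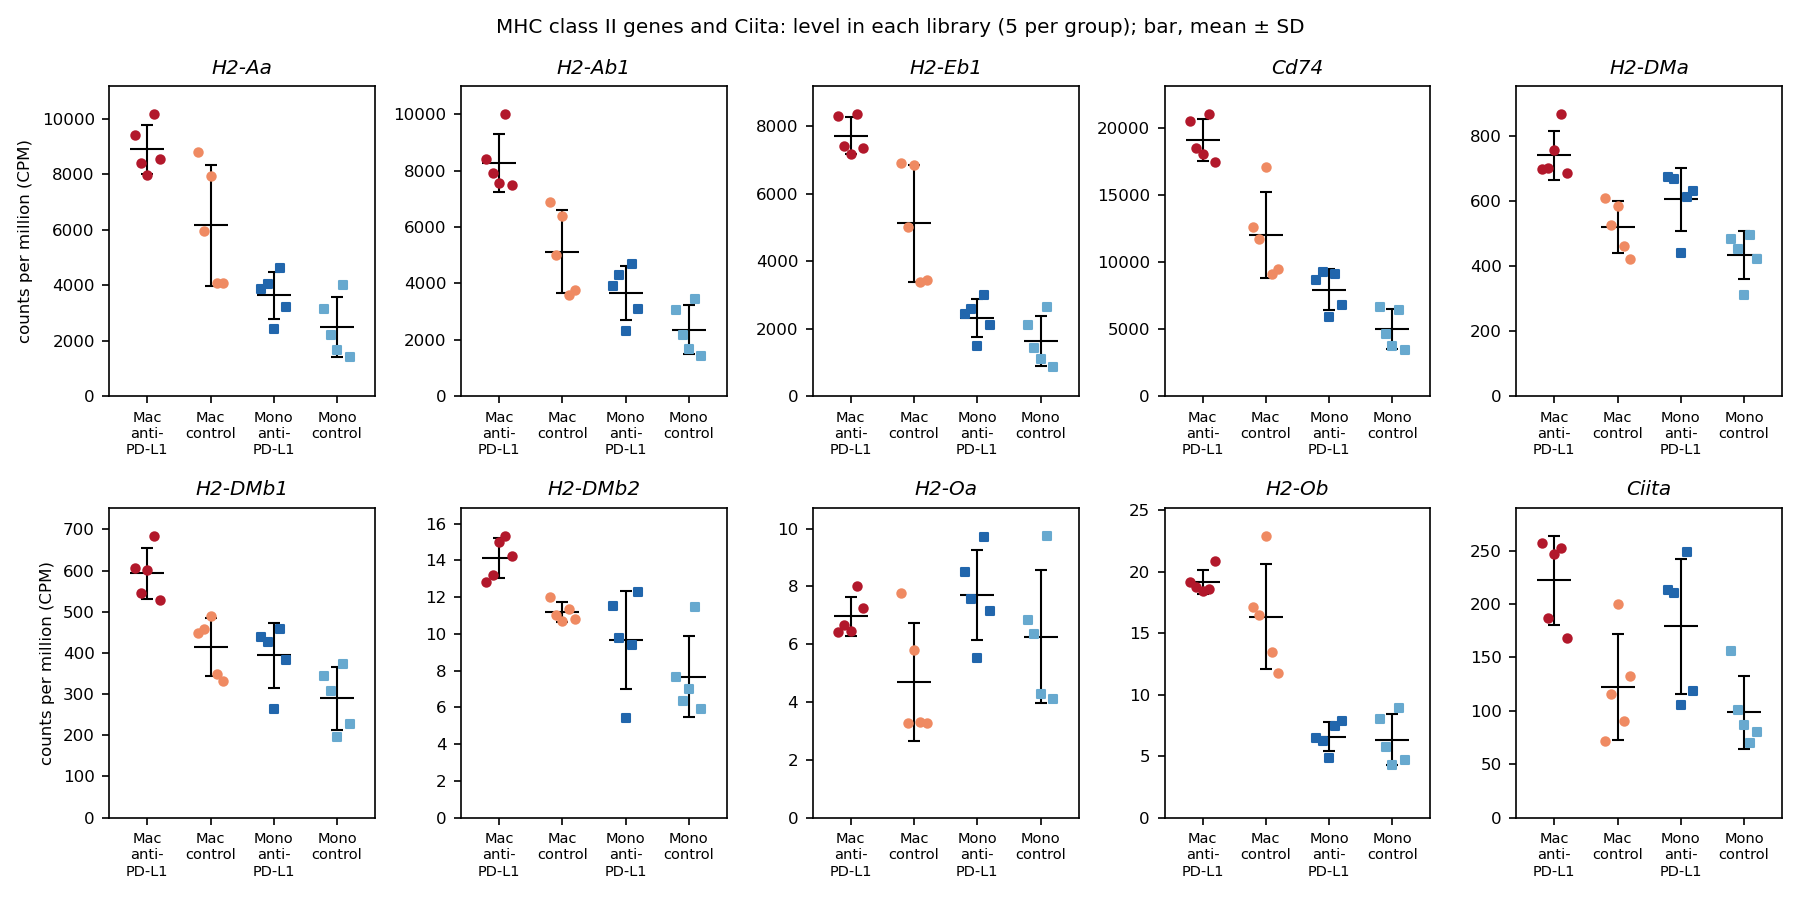
Level of each gene in CPM (counts scaled to a common library size) in the 20 libraries, in groups of 5; points are libraries, and bars are mean ± SD. The chain genes and Cd74 are highest in anti-PD-L1 macrophages and the libraries of that group lie close together, while H2-Oa shows no such gap between macrophages and monocytes.

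After anti-PD-L1, macrophages held higher mean levels of all 10 genes, with log2 fold changes of 0.23 to 0.87 and a median of 0.55, against -0.01 over all genes tested. H2-DMa alone passed edgeR's quasi-likelihood test at an adjusted p of 0.05, so 1 of 10 was called higher, against a background of 1.73% of all genes called higher and 2.92% called lower. For 6 of 10 genes every anti-PD-L1 library lay above every control library, which held for 4.11% of all genes: H2-Ab1, H2-Eb1, Cd74, H2-DMa, H2-DMb1 and H2-DMb2. Fold changes in the text are log2 values with standard errors from that test, adjusted by Benjamini-Hochberg over all genes, and library values are CPM scaled by TMM library sizes, sorted low to high.

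None of the 3 chain genes passed the test in macrophages. H2-Aa (Entrez 14960, chr17:34282744-34287823), the alpha chain of I-A, stood at 7955, 8387, 8534, 9412 and 10160 CPM in anti-PD-L1 macrophages, against 4062, 4066, 5948, 7938 and 8792 CPM in control macrophages. Control replicate 1 lay inside the treated range and control replicate 3 just below it, so the groups overlapped (0.53, SE 0.27, adjusted p = 0.242). H2-Ab1 (Entrez 14961, chr17:34263227-34269418), its beta chain partner, stood at 7498, 7551, 7913, 8430 and 10010 CPM in anti-PD-L1 macrophages, against 3598, 3778, 5006, 6390 and 6879 CPM in control macrophages. These groups did not overlap, and the difference of 0.69 (SE 0.25) missed the threshold with an adjusted p of 0.0911. H2-Eb1 (Entrez 14969, chr17:34305867-34316674), the beta chain of I-E, stood at 7174, 7369, 7423, 8294 and 8360 CPM in anti-PD-L1 macrophages, against 3385, 3454, 5002, 6854 and 6909 CPM in control macrophages. Here too the lowest treated library exceeded the highest control library (0.59, SE 0.27, adjusted p = 0.192).

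Cd74 (Entrez 16149, chromosome 18) was the most abundant gene of the set. It stood at 17500, 18110, 18500, 20510 and 21050 CPM in anti-PD-L1 macrophages, against 9139, 9472, 11710, 12620 and 17110 CPM in control macrophages. Control replicate 3 came nearest to the treated libraries, and the difference was 0.67 (SE 0.21, adjusted p = 0.0581).

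The coefficient of variation over 5 libraries was lower in anti-PD-L1 than in control macrophages for 9 of 10 genes. It was 9.97% in anti-PD-L1 macrophages against 35.3% in control macrophages for H2-Aa, 7.23% against 33.8% for H2-Eb1, 8.13% against 26.7% for Cd74 and 5.10% against 26.2% for H2-Ob. H2-DMb2 was the exception, at 7.85% against 4.71%. In monocytes the coefficient was also lower after anti-PD-L1 for every member but Ciita. It was 23% in anti-PD-L1 against 43.2% in control monocytes for H2-Aa, and 35.2% against 34.4% for Ciita. The chain genes and Cd74 vary together across libraries, so they are not separate observations. The share of all genes with a lower coefficient after treatment was not computed, and no test was made of the difference in spread.

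H2-DMa (Entrez 14998, chr17:34119693-34139101), the alpha chain of the peptide exchanger, rose. It stood at 684, 698, 699, 755 and 866 CPM in anti-PD-L1 macrophages, against 421, 460, 527, 585 and 610 CPM in control macrophages. The groups did not overlap, and the difference was 0.51 (SE 0.14, adjusted p = 0.0468). That p lay close to the threshold: with neighbouring sample numbers as a block it was 0.0533 in limma-voom. Leaving out any 1 of 10 libraries ended the call, with adjusted p values of 0.0501 to 0.106. These libraries were anti-PD-L1 macrophage replicates 1, 3, 4 and 5, control macrophage replicates 1 and 5, anti-PD-L1 monocyte replicates 1 and 5, and control monocyte replicates 1 and 2. Without the control pair lowest in Ciita, H2-DMa was at 0.57 (adjusted p = 0.0779) and 0 of 10 members were called. H2-DMa overlaps Brd2, a chromatin reader gene, on the opposite strand, and the strand setting of the counting is not stated in the sources used here. Brd2 stood at 377 to 461 CPM in anti-PD-L1 macrophages, against 261 to 402 CPM in control macrophages (0.28, SE 0.14, adjusted p = 0.238). No stretch of 50 bases in annotated H2-DMa transcripts occurs in another gene, but reads outside them could be shared, so H2-DMa values carry that uncertainty.

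The beta chain genes of H2-DM lay at very different levels. H2-DMb1 (Entrez 14999, chr17:34153191-34160229) ranged from 530 to 685 CPM in anti-PD-L1 macrophages, against 332 to 490 CPM in control macrophages (0.51, SE 0.17, adjusted p = 0.0762). H2-DMb2 (Entrez 15000, chr17:34143229-34151553) ranged from 12.8 to 15.3 CPM in anti-PD-L1 macrophages, against 10.7 to 12.02 CPM in control macrophages (0.34, SE 0.18, adjusted p = 0.279). Both pairs of ranges were separate. The transcripts of H2-DMb1 and H2-DMb2 share 369 stretches of 50 bases, 27.2% of those of H2-DMb1 and 25.9% of those of H2-DMb2 being found in another gene, so unique alignment may have lost or split some reads and both values are uncertain.

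The modulator genes H2-Oa and H2-Ob were low. H2-Oa (Entrez 15001, chr17:34092379-34095234), whose product pairs with that of H2-Ob, stood at 6.41, 6.46, 6.68, 7.26 and 8.02 CPM in anti-PD-L1 macrophages, against 3.28, 3.28, 3.32, 5.80 and 7.77 CPM in control macrophages. Control replicates 1 and 3 were the high ones, and the difference did not pass (0.57, SE 0.26, adjusted p = 0.185). H2-Ob (Entrez 15002, chr17:34238905-34245908) stood at 18.4, 18.6, 18.8, 19.1 and 20.8 CPM in anti-PD-L1 macrophages, against 11.7, 13.4, 16.5, 17.1 and 22.9 CPM in control macrophages. The control range enclosed the treated one (0.23, SE 0.20, adjusted p = 0.527). H2-Oa shares 21.7% of its stretches of 50 bases with BC051537, annotated over it on the other strand at 0.548 to 2.35 CPM, and no source used here states the strand setting of the counting, so its values are uncertain.

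Ciita (Entrez 12265, chr16:10480014-10531064) had the highest fold change of the set in macrophages. It stood at 168, 187, 247, 253 and 257 CPM in anti-PD-L1 macrophages, against 72.0, 90.1, 115, 133 and 200 CPM in control macrophages. Control replicate 3 lay inside the treated range, and the difference of 0.87 (SE 0.28) missed the threshold with an adjusted p of 0.0661. Ciita overlaps Dexi on the opposite strand, with Dexi at 9.15 to 20.9 CPM over all libraries and 0.195% of the Ciita stretches of 50 bases shared with it.

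In monocytes, levels of all 10 genes were again higher on average after anti-PD-L1, with a median log2 fold change of 0.50 against 0.02 over all genes tested. H2-Ob was the exception under another choice of libraries, at -0.04 without the control pair lowest in the class II chains. Cd74, H2-DMa and Ciita rose, so 3 of 10 were called higher in edgeR's quasi-likelihood test, against a background of 9.92% of all genes called higher and 15.4% called lower. No gene of the set had separate groups, which held for 5.09% of all genes. The anti-PD-L1 libraries reached lower here than in macrophages: replicate 3 was the lowest of its group for all 10 genes.

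Cd74 stood at 5882, 6788, 8636, 9109 and 9285 CPM in anti-PD-L1 monocytes, against 3456, 3770, 4657, 6462 and 6673 CPM in control monocytes. Control replicates 1 and 4 overlapped the lowest treated library (0.67, SE 0.21, adjusted p = 0.0245). H2-DMa stood at 440, 610, 630, 668 and 674 CPM in anti-PD-L1 monocytes, against 312, 422, 453, 484 and 496 CPM in control monocytes. Apart from replicate 3, every treated library lay above every control library (0.48, SE 0.14, adjusted p = 0.0186). Its overlapping neighbour Brd2 also rose, at 505 to 764 CPM in anti-PD-L1 monocytes, against 311 to 537 CPM in control monocytes (0.44, SE 0.14, adjusted p = 0.0309). Ciita stood at 106, 119, 210, 213 and 249 CPM in anti-PD-L1 monocytes, against 69.4, 80.5, 86.3, 100 and 156 CPM in control monocytes. Anti-PD-L1 replicates 3 and 5 lay within the control range and the other 3 well above it (0.87, SE 0.28, adjusted p = 0.0292).

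These 3 calls rested on few libraries. Leaving out anti-PD-L1 monocyte replicate 1, anti-PD-L1 replicate 2 or control monocyte replicate 3 ended all 3 calls, with adjusted p values of 0.0536 to 0.0787. Leaving out anti-PD-L1 monocyte replicate 4 ended those of Cd74 (0.0594) and Ciita (0.0906), and leaving out control monocyte replicate 4 (0.0876) or 5 (0.0534) ended that of Ciita. With monocytes alone in the fit, none of the 3 passed, at 0.65 (adjusted p = 0.0775) for Cd74, 0.46 (0.0572) for H2-DMa and 0.84 (0.0597) for Ciita. With no filter on low counts, Cd74 missed the threshold (adjusted p = 0.0532).

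Without the control pair lowest in Ciita, left out after its values were seen, 7 of 10 members were called in monocytes. The share of all genes called in that fit is not given here, so this count has no background to be read against. Cd74 stood at 0.77 and H2-DMa at 0.53, and the chain genes passed, H2-Aa at 0.79 (adjusted p = 0.0364), H2-Ab1 at 0.82 (0.0297) and H2-Eb1 at 0.76 (0.0472). H2-DMb1 at 0.55 (0.0426) and H2-DMb2 at 0.52 (0.0393) passed as well. Ciita did not, at 0.76 (adjusted p = 0.0603).

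The chain genes in monocytes were higher by 0.55 (SE 0.27, adjusted p = 0.138) for H2-Aa, 0.64 (SE 0.25, adjusted p = 0.0621) for H2-Ab1 and 0.52 (SE 0.27, adjusted p = 0.169) for H2-Eb1, none past the threshold. H2-Ab1 stood at 2329, 3109, 3923, 4314 and 4708 CPM in anti-PD-L1 monocytes, against 1437, 1672, 2164, 3065 and 3462 CPM in control monocytes. With neighbouring sample numbers as a block, H2-Ab1 passed in limma-voom (0.68, adjusted p = 0.0337). H2-Aa stood at 2429, 3211, 3860, 4052 and 4604 CPM in anti-PD-L1 monocytes, against 1406, 1672, 2205, 3135 and 3995 CPM in control monocytes. H2-Eb1 stood at 1491, 2120, 2435, 2570 and 3011 CPM in anti-PD-L1 monocytes, against 860, 1096, 1416, 2103 and 2643 CPM in control monocytes. For both genes control replicates 1 and 4 reached into the treated range.

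Of the other members, H2-DMb1 ranged from 263 to 458 CPM in anti-PD-L1 monocytes, against 196 to 373 CPM in control monocytes (0.44, SE 0.17, adjusted p = 0.0668). H2-DMb2 ranged from 5.43 to 12.3 CPM in anti-PD-L1 monocytes, against 5.91 to 11.5 CPM in control monocytes (0.33, SE 0.18, adjusted p = 0.190). Neither beta chain gene had separate groups. H2-Oa stood at 5.53, 7.15, 7.57, 8.51 and 9.69 CPM in anti-PD-L1 monocytes, against 4.11, 4.28, 6.36, 6.82 and 9.75 CPM in control monocytes (0.29, SE 0.26, adjusted p = 0.421). H2-Ob stood at 4.81, 6.24, 6.47, 7.44 and 7.87 CPM in anti-PD-L1 monocytes, against 4.25, 4.68, 5.73, 8.03 and 8.93 CPM in control monocytes (0.05, SE 0.20, adjusted p = 0.870). For H2-Oa and H2-Ob the highest monocyte library was control replicate 4.

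**Figure D2:**
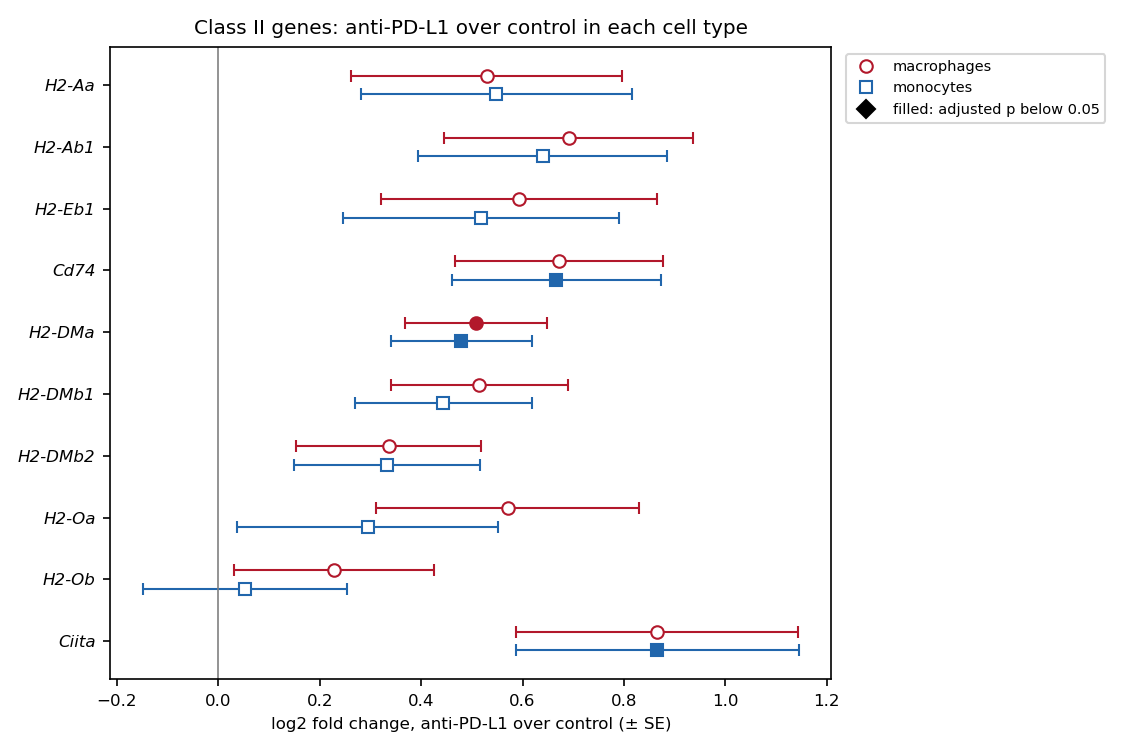
Log2 fold change of each gene, anti-PD-L1 over control, with its standard error, in macrophages (circles) and monocytes (squares); filled symbols passed an adjusted p of 0.05 in edgeR's quasi-likelihood test. All 20 values lie above 0, and H2-DMa in macrophages and Cd74, H2-DMa and Ciita in monocytes are filled.

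The treatment differences in macrophages and monocytes were tested against each other. No member passed in edgeR's quasi-likelihood test, nor did any of 15390 genes, while 980 genes (6.37%) and 0 of 10 members had an unadjusted p under 0.05. DESeq2 called 0 members and 7 genes. The differences between the effects, macrophage minus monocyte, ran from -0.02 for H2-Aa to 0.28 for H2-Oa. Their 95% intervals were wide, from -0.81 to 0.81 for Ciita, from -0.67 to 0.78 for H2-Ab1, from -0.60 to 0.61 for Cd74 and from -0.38 to 0.44 for H2-DMa. These intervals come from the fit without a block for neighbouring sample numbers, and none with the block is given. Differences of these sizes are compatible with the data under that fit, so the test does not show that the effects are alike.

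Markers of fibroblasts moved with treatment. Of 19 such markers, 9 were lower in anti-PD-L1 than in control macrophages and 12 in anti-PD-L1 than in control monocytes, with median log2 fold changes of -2.67 and -2.32. Their summed level was 1014 to 2192 CPM in anti-PD-L1 macrophages, against 1676 to 6031 CPM in control macrophages, and 4250 to 7313 CPM in anti-PD-L1 monocytes, against 7116 to 12570 CPM in control monocytes. Fn1, also a monocyte marker, made up 47.6% to 98.9% of that sum. The other 18 markers summed to 84.9 to 435 CPM in anti-PD-L1 macrophages, against 130 to 2500 CPM in control macrophages, and to 81.4 to 624 CPM in anti-PD-L1 monocytes, against 398 to 3904 CPM in control monocytes. Leaving out the 6 control libraries highest in these markers, 3 of each cell type, all 10 members were still higher on average in anti-PD-L1 macrophages and H2-DMa stood at 0.59 (adjusted p = 0.107), while H2-Oa passed at 1.08 (adjusted p = 0.0486). In monocytes Cd74 passed without them at 0.95 (adjusted p = 0.0363), while H2-DMa at 0.44 (adjusted p = 0.210) and Ciita at 0.96 (adjusted p = 0.190) did not. With the marker level as a covariate in edgeR's quasi-likelihood test, no member was called for treatment in either cell type, H2-DMa in macrophages stood at 0.42 (adjusted p = 0.720) and Ciita in monocytes at 0.79 (adjusted p = 0.408). The share of all genes called in these fits is not given here, so changes in calls may not be particular to the class II genes. The part of these cells in the class II differences was not tested otherwise.

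Other cells that carry class II gave these values. Of 11 B cell markers, 5 passed the filter on low counts and 1, Ebf1, was lower after treatment in both cell types. Their summed level was 26.4 to 46.7 CPM in anti-PD-L1 macrophages, against 22.0 to 35.8 CPM in control macrophages, and 11.04 to 19.8 CPM in anti-PD-L1 monocytes, against 11.98 to 19.9 CPM in control monocytes. Pax5 was at 0 in some libraries and reached at most 0.219 CPM in the others. Of 15 dendritic cell markers, 2 were lower and 0 higher in anti-PD-L1 macrophages: Flt3 at -1.82 (SE 0.46) and Zbtb46 at -2.11 (SE 0.49). Flt3 stood at 0.0811 to 0.234 CPM in anti-PD-L1 macrophages, against 0.0855 to 0.758 CPM in control macrophages, near the value of 3 counts. Zbtb46 was also low, at 0.0586 to 0.470 CPM against 0.456 to 1.516 CPM. Of the 15, 11 had positive fold changes in macrophages, with a median of 0.12. Xcr1 stood at 25.25 to 45.52 CPM in anti-PD-L1 macrophages, against 7.43 to 39.48 CPM in control macrophages. Clec9a stood at 14.46 to 21.58 CPM against 5.74 to 24.11 CPM, and neither passed the test. In anti-PD-L1 monocytes 1 was lower, Fscn1 at -2.65 (SE 0.69). Their summed level was 541 to 609 CPM in anti-PD-L1 macrophages, against 494 to 562 CPM in control macrophages, and 520 to 625 CPM in anti-PD-L1 monocytes, against 513 to 560 CPM in control monocytes. Snx22 and Wdfy4 made up most of these sums, and the other 13 markers summed to 66.8 to 98.5 CPM in anti-PD-L1 macrophages, against 38.1 to 108 CPM in control macrophages, and to 66.4 to 124 CPM in anti-PD-L1 monocytes, against 67.5 to 133 CPM in control monocytes. Their part in the class II differences was not tested.

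The chain genes, Cd74 and H2-Ob were higher in macrophages than in monocytes in both kinds of tumour, with separate groups. In anti-PD-L1 tumours, 7 of 10 members were called higher in macrophages, against a background of 28.2% of genes called higher and 25.7% called lower, and 8 of 10 had separate groups, against 25.0%. In control tumours the numbers were also 7 of 10, against 24.0% called higher, with 3084 genes called lower, and 5 of 10 with separate groups, against 14.3%. The same 7 genes were called in both: H2-Aa, H2-Ab1, H2-Eb1, Cd74, H2-DMb1, H2-DMb2 and H2-Ob. The 2 comparisons share no libraries.

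H2-Eb1 showed the highest macrophage excess among the chain genes. The log2 difference, macrophage minus monocyte, was 1.73 (SE 0.28, adjusted p = 3.45e-05) in anti-PD-L1 tumours and 1.66 (SE 0.28, adjusted p = 8.21e-05) in control tumours. H2-Aa differed by 1.29 (SE 0.27, adjusted p = 0.000494) in anti-PD-L1 tumours and by 1.31 (SE 0.27, adjusted p = 0.000615) in control tumours. H2-Ab1 differed by 1.17 (SE 0.25, adjusted p = 0.000532) in anti-PD-L1 tumours and by 1.12 (SE 0.25, adjusted p = 0.00110) in control tumours. Within a library, the nRPKM of H2-Eb1 over that of H2-Ab1 was 0.597 to 0.703 in anti-PD-L1 macrophages against 0.426 to 0.487 in anti-PD-L1 monocytes, and 0.653 to 0.767 in control macrophages against 0.428 to 0.546 in control monocytes. The I-E beta chain gene was thus lower relative to its I-A counterpart in every monocyte library. Cd74 differed by 1.27 (SE 0.21, adjusted p = 4.11e-05) in anti-PD-L1 tumours and by 1.26 (SE 0.21, adjusted p = 6.55e-05) in control tumours.

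The peptide exchange genes differed less. H2-DMb1 was higher in macrophages by 0.59 (SE 0.17, adjusted p = 0.00735) in anti-PD-L1 tumours and by 0.52 (SE 0.17, adjusted p = 0.0203) in control tumours. H2-DMb2 was higher by 0.55 (SE 0.18, adjusted p = 0.0163) in anti-PD-L1 tumours and by 0.54 (SE 0.18, adjusted p = 0.0212) in control tumours. In control tumours these calls ended for H2-DMb1 without control macrophage replicate 2 (adjusted p = 0.0617) or 3 (0.0582) or control monocyte replicate 3 (0.0561) or 5 (0.0527), and for H2-DMb2 without control monocyte replicate 2 (0.0573) or 5 (0.0538). H2-DMa stood at 0.29 (SE 0.14, adjusted p = 0.0825) in anti-PD-L1 tumours and 0.26 (SE 0.14, adjusted p = 0.134) in control tumours. With a fixed block for neighbouring sample numbers, H2-DMa passed at 0.28 (adjusted p = 0.0115) in anti-PD-L1 tumours and 0.26 (adjusted p = 0.0152) in control tumours.

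The paired H2-O genes parted company. H2-Ob was higher in macrophages by 1.54 (SE 0.20, adjusted p = 3.46e-06) in anti-PD-L1 tumours and by 1.37 (SE 0.20, adjusted p = 1.96e-05) in control tumours. H2-Oa stood at -0.14 (SE 0.26, adjusted p = 0.670) in anti-PD-L1 tumours and -0.42 (SE 0.26, adjusted p = 0.206) in control tumours. With the fixed block H2-Oa was called lower in control macrophages (-0.45, adjusted p = 0.0221). The nRPKM of H2-Ob over that of H2-Oa was 0.769 to 0.991 in anti-PD-L1 macrophages against 0.253 to 0.366 in anti-PD-L1 monocytes, and 0.732 to 1.67 in control macrophages against 0.30 to 0.391 in control monocytes. No macrophage library came near the monocyte range. By contrast, H2-DMb1 over H2-DMb2 had medians of 25.3 in anti-PD-L1 macrophages, 22.8 in control macrophages, 26.7 in anti-PD-L1 monocytes and 23.5 in control monocytes, with ranges that overlapped.

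**Figure D3:**
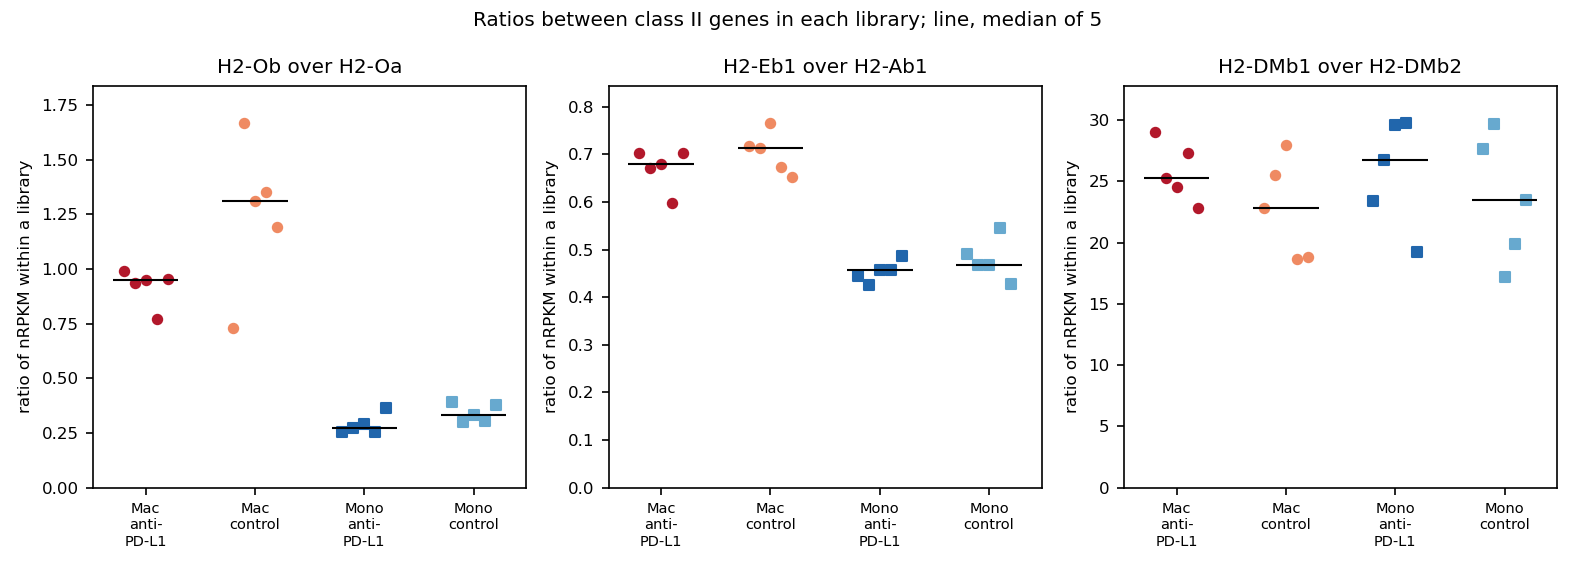
Ratio of deposited nRPKM values of paired genes within each library, by group of 5, with the median as a line. H2-Ob over H2-Oa and H2-Eb1 over H2-Ab1 separate macrophages from monocytes, and H2-DMb1 over H2-DMb2 does not.

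Ciita itself differed little between the cell types. It was higher in macrophages by 0.31 (SE 0.28, adjusted p = 0.368) in anti-PD-L1 tumours and 0.31 (SE 0.28, adjusted p = 0.399) in control tumours, with overlapping groups in both. With the fixed block it passed at 0.34 (adjusted p = 0.00981) and 0.27 (adjusted p = 0.0273), the 1 of 10 alternatives that called it in each kind of tumour. Limma-voom with the block did not call it. The nRPKM of H2-Ab1 over that of Ciita had medians of 223 in anti-PD-L1 macrophages against 116 in anti-PD-L1 monocytes, and 225 in control macrophages against 111 in control monocytes.

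Libraries with neighbouring sample numbers deviated together and were taken as 10 macrophage and monocyte pairs, which the labels do not state. Within every pair, in 5 of 5 of anti-PD-L1 and 5 of 5 of control tumours, the macrophage library was the higher one for 9 of the 10 genes. H2-Oa was the exception, being higher in the macrophage library in 3 of 5 anti-PD-L1 pairs and in 0 of 5 control pairs, where the log2 differences ran from -0.96 to -0.23. For H2-Eb1 they ran from 1.46 to 2.31 in anti-PD-L1 pairs and from 1.39 to 1.98 in control pairs, and for Ciita from 0.05 to 0.82 and from 0.05 to 0.62. The share of all genes higher in the macrophage library of every pair was not computed. Genes with separate groups, 25.0% of all genes in anti-PD-L1 and 14.3% in control tumours, are by definition higher in each of those pairs. The count for the members may thus not be particular to them.

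**Figure D4:**
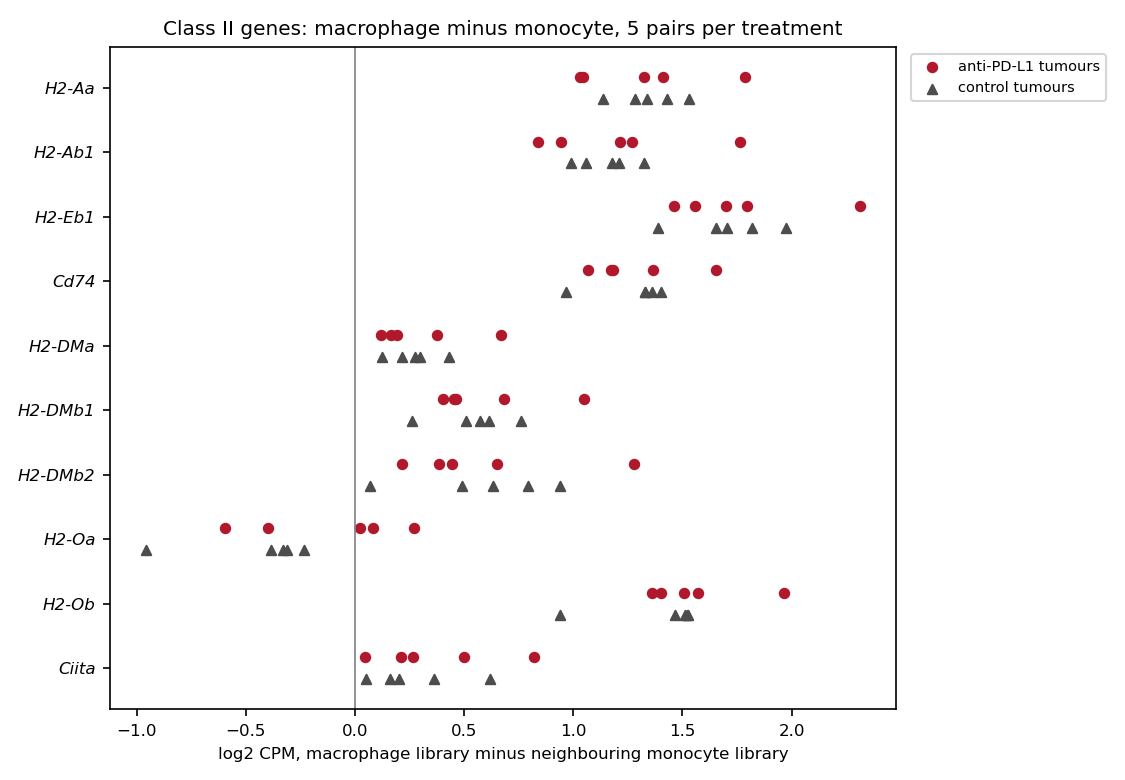
Log2 CPM of each gene in a macrophage library minus that in the monocyte library with the neighbouring sample number, for 5 anti-PD-L1 pairs (circles) and 5 control pairs (triangles). All genes shown but H2-Oa lie to the right of 0 in all 10 pairs. The share of all genes measured that do so was not computed.

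Dendritic cell markers also differed between the sorts. Of 15, 3 were higher and 7 lower in macrophages of anti-PD-L1 tumours, and 2 were higher and 5 lower in those of control tumours. Xcr1 was higher in macrophages by 2.44 (SE 0.41) in anti-PD-L1 and 2.04 (SE 0.41) in control tumours, and Clec9a by 2.14 (SE 0.34) and 1.41 (SE 0.33), while Flt3, needed by dendritic cells, was lower, at -5.74 (SE 0.46) and -3.62 (SE 0.39). Of 5 B cell markers tested, 2 were higher and 1 lower in macrophages of anti-PD-L1 tumours, and 1 was higher and 1 lower in those of control tumours. Cd79b, a part of the B cell receptor, was higher in macrophages by 1.97 (SE 0.23) and 1.56 (SE 0.23). Fibroblast markers were lower in 3 of 19 in macrophages of anti-PD-L1 tumours and in 1 of 19 in those of control tumours. Whether such cells take part in the class II gap was not tested.

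Among the control libraries, the same pairs were high and low for class II in both cell types. The 5 control pairs stood in the same order in macrophages and in monocytes for H2-Aa, H2-Ab1, H2-Eb1, Cd74 and H2-DMa, 5 of 10 members. In anti-PD-L1 tumours this held for 0 of 10. The order was not examined for other genes. Over all genes tested, deviations from group means correlated at r from 0.422 to 0.722 in control pairs and from 0.217 to 0.504 in anti-PD-L1 pairs. H2-Aa, H2-Ab1, H2-Eb1 and Cd74 correlated with each other at r from 0.928 to 0.995, so their orders are not separate observations. Control macrophage replicate 4 and its neighbour, control monocyte replicate 5, were the lowest for H2-Aa, at 4062 and 1406 CPM, for H2-Ab1, at 3598 and 1437 CPM, and for Cd74, at 9139 and 3456 CPM. Control macrophage replicate 1 and its neighbour, control monocyte replicate 4, were the highest for H2-Aa, at 8792 and 3995 CPM, and for H2-Ab1, at 6879 and 3462 CPM.

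That highest pair was also the lowest for Ciita, at 72.0 CPM in the macrophage and 69.4 CPM in the monocyte library, and was left out above for that reason. In both libraries, 6 of 14 factors of CIITA and the class II promoters and 3 of 10 genes of interferon gamma signalling were also at the lowest level of the group. The same held for 1 of 10 members, Ciita itself, and for 19.6% of all genes. Nfya, a subunit of the Y box factor, was at 57.9 and 63.5 CPM, and Kdm6b, a histone demethylase, at 74.8 and 176 CPM. In control macrophage replicate 1, the nRPKM of H2-Ab1 over that of Ciita was 538, the highest of all 20 libraries.

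Over 20 libraries centred on their group means, Ciita correlated with H2-Aa at r = 0.305, with H2-Ab1 at 0.409, with H2-Eb1 at 0.343 and with Cd74 at 0.590. For H2-DMa r was 0.325, for H2-DMb1 0.485, for H2-DMb2 0.070, for H2-Oa 0.132 and for H2-Ob 0.285. Without that pair, left out after its values were seen, r over 18 libraries was 0.832 for H2-Aa, 0.875 for H2-Ab1, 0.831 for H2-Eb1, 0.885 for Cd74, 0.783 for H2-DMb1 and 0.774 for H2-Oa. It was lower for H2-DMa at 0.632, H2-Ob at 0.574 and H2-DMb2 at 0.358. These libraries share depth scaling and come in pairs, so the correlations are descriptions. Among the other members, r was 0.995 for H2-Aa and H2-Eb1, 0.986 for H2-Aa and H2-Ab1 and 0.910 for H2-DMa and H2-DMb1 over 20 libraries, and 0.995, 0.985 and 0.921 without that pair.

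**Figure D5:**
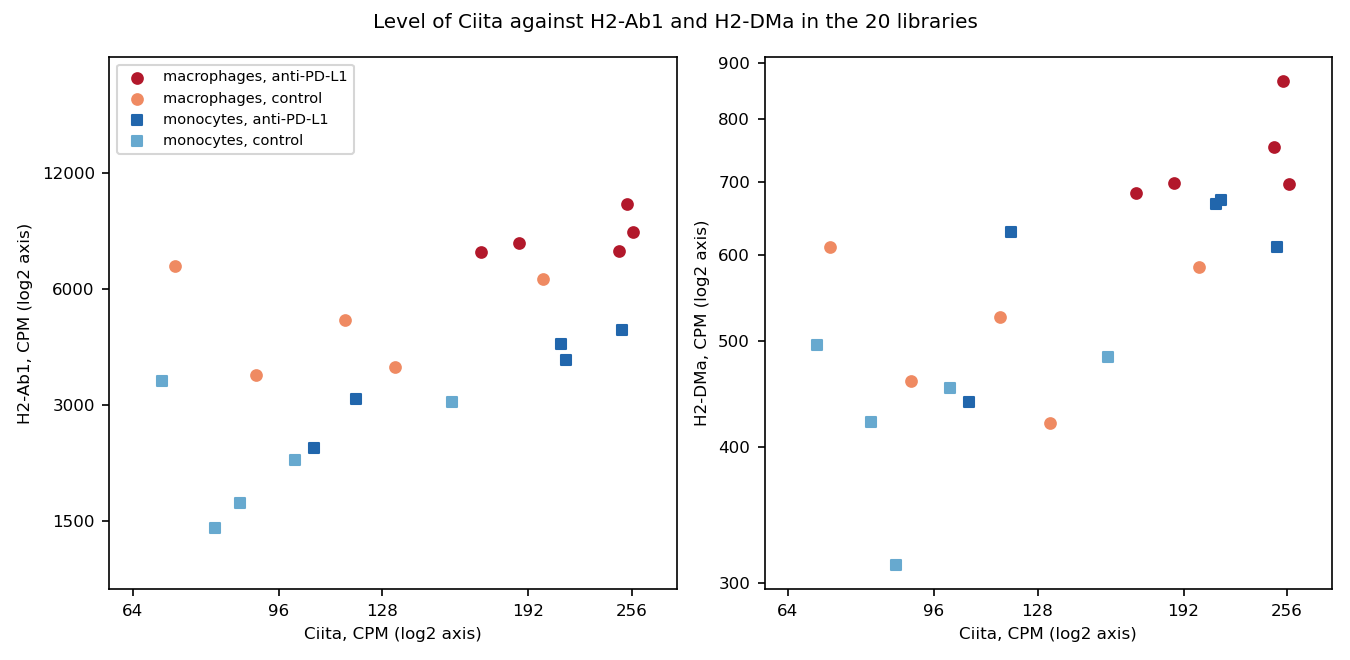
Ciita against H2-Ab1 (left) and H2-DMa (right) in the 20 libraries, in CPM on log2 axes; each point is a library. Control macrophage replicate 1 and control monocyte replicate 4 lie at the far left, with Ciita at 72.0 and 69.4 CPM and yet the highest H2-Ab1 of their groups.

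The genes whose group-centred levels over 20 libraries were most like the mean of H2-Aa, H2-Ab1, H2-Eb1 and Cd74 were 4 unnamed gene models (r from 0.856 to 0.995), Mir5107 (0.967), which lies within Cd74, BC051537 (0.889), Gbp2b (0.871) and Enpp5 (0.868). Those most like Ciita were Mtmr4 (0.912), Ubfd1 (0.907), Ubxn2b (0.866), Dexi (0.855) and Atp6v0a2 (0.850). Both rankings include the control pair lowest in Ciita and were not repeated without it, so they may reflect that pair. Mir5107, BC051537 and Dexi overlap members in the annotation, so reads of the one may have been counted for the other.

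Genes that act before and after class II transcription gave the following counts, to be read against the shares of all genes called after treatment, 1.73% higher and 2.92% lower in macrophages and 9.92% higher and 15.4% lower in monocytes. Of 10 genes of interferon gamma signalling, 3 rose in anti-PD-L1 macrophages, among them Socs1 by 0.99 (SE 0.27), a feedback inhibitor of the pathway, and Usf1 by 0.38 (SE 0.08), which binds a Ciita promoter. In anti-PD-L1 monocytes 7 of 10 rose, among them Irf1 by 0.77 (SE 0.17), Irf2 by 0.51 (SE 0.10) and Socs1 by 1.02 (SE 0.27). Of 14 factors of CIITA and the class II promoters, 4 rose and 2 fell in monocytes. The fallen 2 were Ezh2 at -0.65 (SE 0.17) and Hdac2 at -0.33 (SE 0.07), both chromatin repressors. With neighbouring sample numbers as a block, Ezh2 missed the threshold (adjusted p = 0.0502). The X box factors stayed near 0 in macrophages, with Rfx5 at 0.13 (SE 0.09), Rfxap at 0.07 (SE 0.09) and Rfxank at 0.07 (SE 0.08), none past the test. The count in macrophages varied from 0 to 6 for interferon gamma signalling when libraries were left out 1 at a time. Without the control pair lowest in Ciita, 0 genes of either list were called in macrophages, and in monocytes 8 and 6. In both lists and both cell types, 0 were called once the 6 control libraries with most fibroblast RNA were left out. The shares of all genes called in these fits are not given here.

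Of 16 genes of endosomal antigen processing, 1 rose in macrophages, the metal transporter gene Slc11a1 at 0.58 (SE 0.16), which missed the threshold with that block (adjusted p = 0.0830). In monocytes 6 rose and 1 fell. Ctss, the protease that trims the invariant chain, rose by 0.47 (SE 0.15), and Sppl2a, which cleaves its membrane stub, by 0.48 (SE 0.14). Cd63, an endosomal tetraspanin, stood at -1.57 (SE 0.30). Its levels were 14.0 to 33.3 CPM in anti-PD-L1 monocytes, against 27.1 to 111 CPM in control monocytes. Control replicate 5, at 27.1 CPM, was also the lowest control monocyte library in fibroblast markers. Over 10 other alternatives the fold change of Cd63 ran from -1.77 to -0.65, and it passed in 8. The part of fibroblast RNA in this was not tested. For the lists of this paragraph, counts with fewer fibroblast-rich libraries are not given. Of 10 genes of class II turnover, 0 passed in macrophages, and in monocytes 2 rose and 1 fell. Marchf1, which tags class II for degradation, was among the risen (0.55, SE 0.13), as was the interleukin 10 receptor gene Il10ra (0.43, SE 0.13). Of 7 other genes of the class II region, 0 passed in macrophages and 5 rose in monocytes: Tap1 (0.56, SE 0.12), Tap2 (0.60, SE 0.14), Psmb9 (0.45, SE 0.12), Psmb8 (0.32, SE 0.12) and Brd2 (0.44, SE 0.14), of which the first 4 serve class I peptides. When libraries were left out 1 at a time, counts of called genes varied from 0 to 4 in macrophages and from 1 to 12 in monocytes for the processing list, and from 3 to 5 in monocytes for the class II region. The call of Slc11a1 ended in 13 of 20 such fits and that of Psmb8 in 16 of 20. Without the control pair lowest in Ciita, 0 processing genes were called in macrophages, and 2 higher and 1 lower in monocytes.

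Between cell types, 28.2% of all genes were higher and 25.7% lower in macrophages of anti-PD-L1 tumours, and 24.0% were higher and 3084 of 15390 lower in those of control tumours. Of 10 interferon gamma signalling genes, 7 were lower and 0 higher in macrophages than in monocytes in both kinds of tumour. Jak2, a kinase of the receptor, was at -1.84 (SE 0.20) in anti-PD-L1 and -1.73 (SE 0.20) in control tumours, Irf1 at -1.38 (SE 0.17) and -1.19 (SE 0.17), and Ifngr1 at -0.77 (SE 0.13) and -0.61 (SE 0.13). Of 14 factors of CIITA and the class II promoters, which include Irf1, 3 were higher and 7 lower in macrophages of anti-PD-L1 tumours, and 2 higher and 6 lower in those of control tumours. Ezh2 was higher by 1.65 (SE 0.17) and 1.39 (SE 0.17), and Hdac2 by 0.54 (SE 0.07) and 0.35 (SE 0.07), while Kdm6b was at -2.15 (SE 0.25) and -1.76 (SE 0.24).

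Of 16 processing genes, 8 were higher and 2 lower in macrophages of anti-PD-L1 tumours, and 7 higher and 2 lower in those of control tumours. Lgmn, an endosomal protease, was higher by 1.45 (SE 0.13) and 1.48 (SE 0.13), and Ctss by 0.42 (SE 0.15) and 0.43 (SE 0.15). Of 10 turnover genes, 3 were higher and 3 lower in both kinds of tumour. Marchf8, a ligase that acts on class II, was higher by 0.95 (SE 0.11) and 0.78 (SE 0.11), and Il10ra was at -0.57 (SE 0.13) and -0.52 (SE 0.13).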

How the data were processed

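RNA of sorted tumour macrophages and monocytes was sequenced. Per the labels' protocols, 0.1 ug of it entered a strand-specific kit for total RNA, while the labels name polyA RNA. Which of these holds is not settled here. The authors aligned reads with GSNAP to GRCm38, per the submitters' processing notes. Per the file headers, each deposited file holds a read count and an nRPKM value, an RPKM scaled between libraries, for each of 36528 gene models. The annotation and counting tool are not stated.

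Symbols came from RefSeq by Entrez number (31049 models, 85.0%). Deposited counts were used unchanged. In R 4.3.3, edgeR 4.0.16 was run with filterByExpr, TMM and a quasi-likelihood model with a mean per group over 20 libraries, and calls were made at a Benjamini-Hochberg adjusted p of 0.05 over 15390 genes. Deposited RPKM values served only for levels between genes and ratios. Depth was 30191509 to 36514133 counts, and 3 counts equal 0.099 CPM in the shallowest library; such a floor covers counting error only. Replicates were numbered in accession order. No 2 libraries of a group were copies of each other, the lowest chi-square per degree of freedom being 21.8.

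Neighbouring sample numbers pair a macrophage with a monocyte library, and in all 10 pairs the deviations from group means correlated (r from 0.217 to 0.722). Control macrophage replicate 2 was the exception in that another control monocyte library matched it better than its neighbour, control monocyte replicate 2 (r = 0.422). The labels do not state the pairing. A block on the pair was fitted with limma 3.58.1 (voom, block correlation 0.53) and as a fixed term in edgeR. Other alternatives were DESeq2 1.42.0, RLE size factors, no filter, limma-voom without block, a fit of the compared groups only, and each library left out. Alternatives without some control libraries or with a fibroblast covariate were added after seeing the data. The main edgeR fit was first tested on simulated data, for treatment in macrophages only. Those data held no pairs, and the other fits and comparisons were not tested in this way.

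The named genes are all 10 members, up to 6 called genes of each pathway list by p, and the genes most like the chains or Ciita across libraries. Markers named outside that rule, and pathway genes that missed the test, were chosen after their values were seen. Some genes that meet the rule are left out of the text. Members and lists were chosen with earlier results of these data known. Of the listed genes, 7 had no match in the files and are not used here.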

Additional observations from a re-analysis of the deposited data

Results flagged for a closer look

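H2-DMa in anti-PD-L1 monocytes had a library far from the others. Replicate 3 stood at 439.6 CPM, while the other 4 libraries of the group stood at 610.3 to 673.6 CPM. The gap to the nearest library was 0.729 of the whole range of the group, above the critical value of 0.71 for 5 samples in Dixon's test. Among 40 groups examined, 10 genes in 4 groups, this was the 1 group past that value, and chance gives about 1 in 20. The same library was the lowest of its group for all 10 members.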

How the results depend on the processing

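The call of H2-DMa in macrophages held in 10 of 20 fits without 1 library and in 4 of 10 other alternatives. In monocytes those of Cd74 and H2-DMa held in 16 and 17 of 20 and in 7 of 10 each, and that of Ciita in 14 of 20 and 6 of 10. For treatment in macrophages, where 1 member was called, 0 were called with no filter on low counts, in limma-voom, in limma-voom with the replicate block, without the control pair lowest in Ciita and with the fibroblast covariate, 2 without the control pair lowest in the chains, and 5 in DESeq2 and with only the 2 compared groups in the fit. The 5 in DESeq2 were H2-DMa, Cd74, Ciita, H2-Ab1 and H2-DMb1. For treatment in monocytes, where 3 were called, 5 were called in DESeq2, 7 without the control pair lowest in Ciita, 0 with only the 2 compared groups and with the fibroblast covariate, and 1 once the 6 control libraries with most fibroblast RNA were left out. Leaving out 1 library at a time gave 0 to 4 members in macrophages, 0 to 6 in monocytes, 0 to 0 for the difference of effects, 7 to 8 between cell types in anti-PD-L1 tumours and 5 to 8 in control tumours. The highest counts came without control monocyte replicate 4 or anti-PD-L1 monocyte replicate 3 (4 in macrophages) and without anti-PD-L1 monocyte replicate 3 (6 in monocytes). Single calls under the replicate block were checked for the members, and for up to 6 genes of each pathway list called for treatment. Among these, the block changed no call other than those given for H2-DMa, H2-Ab1, Ciita, H2-Oa, Ezh2 and Slc11a1. Other list genes, and list genes between cell types, were not checked singly. Counts under these alternatives are not set beside the share of all genes called in the same fit. Shifts in them may thus not be particular to the members.

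The values whose sign turned were all short of the threshold. H2-Ob in monocytes was -0.0415 without the control pair lowest in the chains, and -0.0619 to 0.19 with libraries left out singly. The difference of effects for Ciita, near 0, was 0.0249 with RLE size factors, 0.0043 without the filter, 0.025 in DESeq2, 0.0899 in limma-voom, 0.0904 with the replicate block, 0.15 without the 6 control libraries, 0.0515 without the lowest pair and 0.003 with the covariate. Without the 6 control libraries that difference was -0.0592 for H2-Ab1, -0.12 for H2-Eb1, -0.0686 for Cd74 and -0.30 for H2-DMb2. Without the control pair lowest in Ciita it was -0.0394 for H2-Eb1, -0.0848 for Cd74, -0.0076 for H2-DMb1 and -0.16 for H2-DMb2. It was 0.0797 for H2-Aa without the lowest pair and -0.0011 for Cd74 with the covariate. With libraries left out singly it ran from -0.18 to 0.19 for H2-Aa, -0.0617 to 0.23 for H2-Ab1, -0.10 to 0.26 for H2-Eb1, -0.12 to 0.22 for Cd74, -0.0146 to 0.14 for H2-DMa, -0.12 to 0.12 for H2-DMb2 and -0.23 to 0.30 for Ciita. The cause of these shifts was not tested. At 5 libraries a group, intervals of the treatment differences, not depth, limit what can be said of the chain genes, while H2-Oa and H2-DMb2 rest on few reads.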
